A study of Mus musculus with 34 samples.

Results

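The glutathione S-transferases (Gst), UDP-glucuronosyltransferases (Ugt) and cytosolic sulfotransferases (Sult) are the 3 main families of phase II conjugating enzymes. They were followed in livers of male mice aged 3 months. Members were taken by name from the protein-coding genes of the deposited expression tables: Gst genes of the alpha, kappa, mu, omega, pi, theta and zeta classes, numbered Ugt1a, Ugt2a, Ugt2b and Ugt3a genes, and Sult genes. The rule gave 64 genes (22 Gst, 21 Ugt and 21 Sult) of 55487 gene IDs, of which 21936 are protein coding. The rule uses gene names and biotype.

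RNA-seq of 34 liver libraries was deposited in 2 tables, each with its own control. The first table held wildtype (WT) mice after an intraperitoneal injection of PBS (6 libraries), WT mice 2 h after TNFa (6 libraries), PiZ mice after PBS (5 libraries) and PiZ p50-KO mice after PBS (5 libraries). PiZ mice carry a transgene for the human Z variant of alpha-1 antitrypsin, which polymerizes in the endoplasmic reticulum of hepatocytes. The PiZ p50-KO mice carry the same transgene and in addition lack p50, the NF-kB subunit encoded by Nfkb1. The second table held WT mice after DMSO (6 libraries) or 24 h after tunicamycin (6 libraries). Tunicamycin is an inhibitor of N-glycosylation that loads the endoplasmic reticulum with misfolded protein. The labels give no strain and do not say that each library came from a separate mouse, so the p-values measure the spread between libraries, which may in part be technical. The tables were normalized apart and levels were tested only within a table.

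Conjugation makes foreign and endogenous compounds more water soluble, so that they can be exported into bile or blood. Gst enzymes join electrophiles to glutathione, Ugt enzymes of the endoplasmic reticulum join a sugar from a UDP-sugar, mostly glucuronic acid, and Sult enzymes join sulfate from the donor PAPS. In the liver these enzymes act mainly in hepatocytes on drugs, bilirubin, bile acids, steroids and products of lipid peroxidation. The Ugt1a genes are a special case, since each has its own promoter and first exon and all share the last exons of 1 locus.

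Promoters of 2 groups of members are shown because their levels differed within tight gene clusters: the pi-class Gst genes on chromosome 19, of which Gstp1 and Gstp2 rose in PiZ livers while Gstp3 did not, and the Ugt1a locus on chromosome 1, where Ugt1a9 and Ugt1a10 rose and Ugt1a5 fell. Each is the 250 bases before the RefSeq start (GRCm38.p6), 5' to 3' on the gene's strand, at chr19:4037913-4038162 (minus) for Gstp1, chr19:4042222-4042471 (minus) for Gstp2, chr19:4059448-4059697 (minus) for Gstp3, chr1:88070529-88070778 (plus) for Ugt1a9, chr1:88055161-88055410 (plus) for Ugt1a10 and chr1:88165762-88166011 (plus) for Ugt1a5. Of 7 motifs searched on both strands, 3 had no match in these windows (the core of the antioxidant response element, the STAT motif and DR4), and capitals mark a match, on either strand, to the TPA response element TGACTCA or to the binding motif of HNF1, a factor of hepatocyte genes (GTTAAT, any base, ATT, any pair of bases, C).
Gstp1: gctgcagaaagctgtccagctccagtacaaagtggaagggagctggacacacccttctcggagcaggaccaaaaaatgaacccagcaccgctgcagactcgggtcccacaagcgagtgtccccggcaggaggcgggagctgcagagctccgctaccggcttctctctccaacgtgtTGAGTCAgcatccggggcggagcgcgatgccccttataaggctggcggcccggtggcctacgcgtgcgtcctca
Gstp2: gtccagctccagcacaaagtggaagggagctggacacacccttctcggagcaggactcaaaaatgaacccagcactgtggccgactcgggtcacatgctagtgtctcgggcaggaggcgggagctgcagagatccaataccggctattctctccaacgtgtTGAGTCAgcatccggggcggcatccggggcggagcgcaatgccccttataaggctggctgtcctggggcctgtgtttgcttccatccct
Gstp3: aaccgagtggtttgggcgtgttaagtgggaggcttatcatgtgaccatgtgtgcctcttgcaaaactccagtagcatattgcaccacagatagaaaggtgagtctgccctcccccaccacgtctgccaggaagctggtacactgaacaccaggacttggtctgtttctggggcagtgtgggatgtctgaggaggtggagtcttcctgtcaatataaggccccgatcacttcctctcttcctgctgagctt
Ugt1a9: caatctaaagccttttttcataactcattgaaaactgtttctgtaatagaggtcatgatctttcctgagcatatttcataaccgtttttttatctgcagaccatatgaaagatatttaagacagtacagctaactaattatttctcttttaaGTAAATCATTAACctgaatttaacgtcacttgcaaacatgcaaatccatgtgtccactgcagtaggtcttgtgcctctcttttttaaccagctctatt
Ugt1a10: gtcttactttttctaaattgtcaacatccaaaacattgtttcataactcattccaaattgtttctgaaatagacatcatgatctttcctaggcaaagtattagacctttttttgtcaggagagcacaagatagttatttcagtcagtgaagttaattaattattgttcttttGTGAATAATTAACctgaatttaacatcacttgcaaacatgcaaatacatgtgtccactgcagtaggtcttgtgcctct
Ugt1a5: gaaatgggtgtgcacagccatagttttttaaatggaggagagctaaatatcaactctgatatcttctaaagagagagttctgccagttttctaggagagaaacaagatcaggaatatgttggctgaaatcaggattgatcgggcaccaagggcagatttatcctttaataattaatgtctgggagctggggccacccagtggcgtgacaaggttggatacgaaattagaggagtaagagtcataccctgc
The Gstp1 and Gstp2 windows were 82.8% identical and each held the TPA response element, at -74 to -68 and at -89 to -83 from the start. The Gstp3 window was 53.2% identical to that of Gstp1, near the 52.4% between the Gstp3 and Ugt1a5 windows of different families, and held neither motif. The Ugt1a9 and Ugt1a10 windows were 75.2% identical and each held the HNF1 motif, at -98 to -86 and at -78 to -66, and the Ugt1a5 window held neither motif. Among all 32851 RefSeq promoters of this length, 4.46% held the TPA response element and 0.116% the HNF1 motif. Of the 56 members with a promoter entry, 7 held the former and 3 the latter (Sult1d1, Ugt1a9 and Ugt1a10). Motifs not marked were the core of the NF-kB motif, which the Gstp1, Gstp2 and Ugt1a5 windows held, as did 45.8% of all promoters, and the core GCGTG of the xenobiotic response element, which the Gstp1, Gstp3 and Ugt1a5 windows held, as did 28.2%. A match describes letters and was not tested as a binding site.

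Depth was 34307572 to 53981673 reads per library apart from the library WT PBS 2, which had 10213252. WT PBS 2 stood apart: 72.2% of its reads fell on protein-coding genes against at least 96.6% elsewhere, and its Alb level was 12.22 log2 CPM against 14.09 to 16.49 elsewhere. Its summed Gst, Ugt and Sult levels were 600.5, 257.7 and 295.2 CPM (a gene's reads scaled to the library total), and it is given apart from the WT PBS group throughout. The hepatocyte markers were abundant in every other library, with a summed level of 90100 to 121000 CPM in WT PBS. These are whole livers, so fewer cells of a type and less RNA per cell cannot be told apart.

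Testing required more than 0 log2 CPM (1 CPM) in 5 or more libraries (first table) or 6 or more (second table). The test thus covered 43 of the 64 members in the first table (20 Gst, 17 Ugt and 6 Sult) and 41 in the second (20 Gst, 15 Ugt and 6 Sult). The members left untested in both were Gsto2, Gstt4, Ugt1a2, Ugt1a8, Ugt2a1, Ugt2a2 and 15 Sult genes (Sult1c1, Sult1e1, Sult2a1 to Sult2a7, Sult2b1, Sult3a1, Sult3a2, Sult4a1, Sult6b1 and Sult6b2), with Ugt1a7c and Ugt1a10 in the second table only. Ugt2a1 and Ugt2a2 had no read in any library. Sult1e1, which sulfates estrogen, reached 5.72 log2 CPM in WT TNFa 1 and 1.10 in WT TNFa 2 and was below 0 in the rest of the first table save WT PBS 2, at 0.83. All 43 members of the first table also passed without the group in which they were highest. In the second table Gsta1 and Sult1c2 passed only through their highest group. Differences are in log2 CPM from limma with Benjamini-Hochberg adjustment over all genes tested, a member being said to have risen or fallen at an adjusted p under 0.05.

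In WT PBS livers the Gst family was the most abundant, followed by Ugt and Sult. The summed Gst level was 5993 CPM ± 373 (SD, n = 5), the Ugt level 4179 ± 277 and the Sult level 1030 ± 112, with no overlap between families. Per kb of exon, the highest Gst members were Gstp3 at 1270 ± 167 CPM per kb, Gstm1 at 987 ± 66.9 and Gsta3 at 301 ± 45. The highest Ugt members were Ugt2b5 at 453 ± 51.3 CPM per kb, Ugt2b1 at 420 ± 73.5 and Ugt2b36 at 236 ± 27.8, and the neighbours Ugt2b5 and Ugt2b1 lay within their spread. Sult1a1, which sulfates phenols, reached 203 ± 38.9 CPM per kb and Sult2a8, which sulfates bile acids, 182 ± 29.3. These also lay within their spread, and Sult1d1, which sulfates catecholamines, followed at 30.1 ± 7.57.

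**Figure D1:**
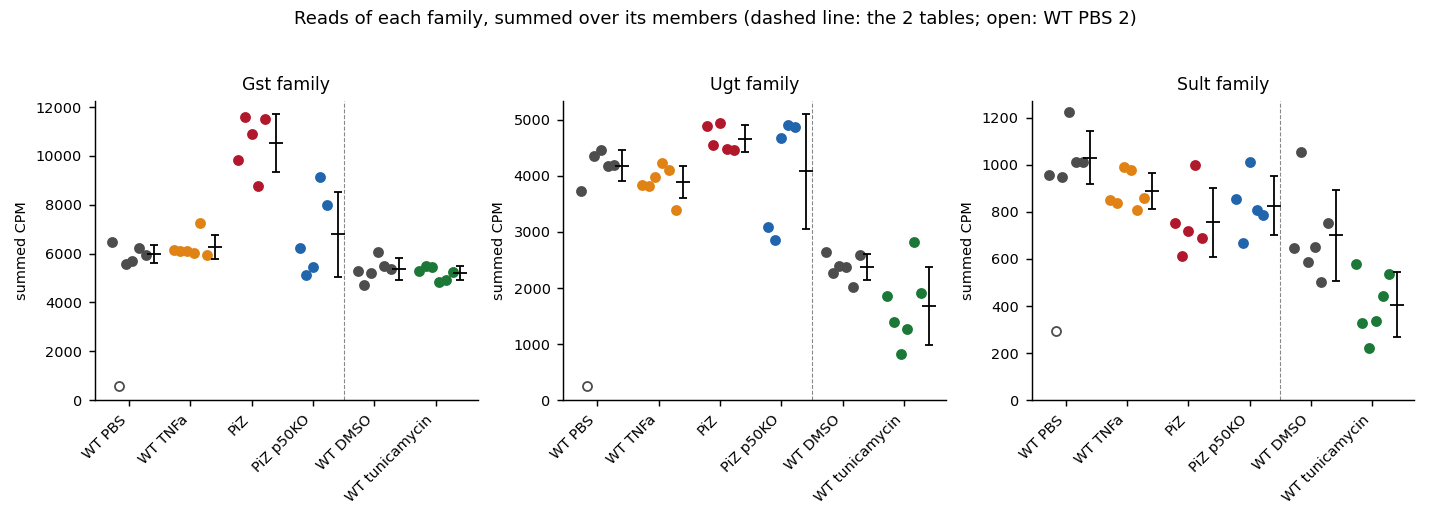
Summed level of the Gst, Ugt and Sult members (CPM, y axis) in each library (points) of the 6 groups (x axis), with the mean and SD, the library WT PBS 2 as an open circle and a dashed line between the tables. The 5 PiZ livers sit between 8781 and 11580 CPM for Gst, all above the WT PBS livers at 5588 to 6481, and the mean Sult sum is 755.7 CPM in PiZ against 1030 in WT PBS.

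The first comparison asked what changes in livers that carry the Z variant. In PiZ livers 6 of 7 mu-class Gst genes (4 with the libraries at the same median) and a part of the alpha and pi classes were higher than in WT PBS, led by Gstm3 at 29.8-fold, while 2 of 3 theta members, Gstz1 and Gsto1 were lower. The Ugt1a locus moved in both directions, with Ugt1a9 7.86-fold higher and Ugt1a1 3.13-fold lower. Of the 43 members tested 18 rose and 12 fell, beside 45.6% and 6.19% of all 13285 genes. By family 12 Gst rose and 4 fell, 5 Ugt rose and 6 fell, and 1 Sult rose and 2 fell. The median difference was 0.51 for Gst, -0.09 for Ugt and 0.01 for Sult, beside 0.40 for all genes.

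That all-gene median is a shift of the whole PiZ group. With every library moved to the same median, the all-gene median difference became -0.09, 17.4% of genes rose and 22.5% fell, and the members split into 12 higher and 19 lower. Medians were then 0.02 for Gst, -0.58 for Ugt and -0.48 for Sult. Members said below to have risen or fallen kept that call on both scales unless a sentence says otherwise. Gsta3, Gstm7, Gstt1, Ugt1a6a, Ugt2a3, Ugt2b1 and Ugt2b5 fell only with the libraries at the same median. With WT PBS 2 in the control group instead, 14 members rose and 1 fell, beside 15.3% and 2.21% of all genes.

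The summed Gst level was 10520 CPM ± 1200 (SD, n = 5) in PiZ against 5993 ± 373 in WT PBS. The share of Gstm1 in the Gst sum was 24.3% in WT PBS and 37.6% in PiZ. The summed Sult level was 755.7 ± 147 CPM in PiZ and 1030 ± 112 in WT PBS, and the ranges overlapped. The summed Ugt level was 4664 ± 234 against 4179 ± 277, ranges that met at 4459 and 4460.

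Of the 7 mu-class members, which detoxify a wide range of electrophiles and lie in 1 cluster on chromosome 3, 6 rose. With the libraries at the same median 4 rose. Of all genes 45.6% rose, or 17.4% at the same median. Gstm3 (chr3:107963696-107969283, minus strand) measured 5.60, 6.61, 5.78, 6.10 and 5.87 log2 CPM in WT PBS livers 1, 3, 4, 5 and 6 and 10.50, 11.12, 11.04, 10.65 and 11.13 in PiZ livers 1 to 5. The lowest PiZ liver was far above the highest WT liver, and the difference was 4.90 log2 (SE 0.55, adjusted p = 6.47e-07). Per kb of exon Gstm3 went from 50.1 ± 14.7 to 1470 ± 283 CPM, so that it stood among the most abundant Gst members in PiZ. Gstm2 measured 5.61, 5.83, 5.48, 5.82 and 5.84 in WT PBS and 7.88, 7.99, 7.82, 7.39 and 7.95 in PiZ. All PiZ livers were higher, by 2.09 (SE 0.29, adjusted p = 8.09e-06). Gstm1 (chr3:108012255-108017973, minus strand) lay at 10.39 to 10.62 in WT PBS and at 11.58 to 12.20 in PiZ, again with no overlap, a difference of 1.43 (SE 0.19, adjusted p = 3.96e-06). Gstm4 rose by 1.43, while the smaller rises of Gstm5 (0.44) and Gstm6 (0.42) were lost with the libraries at the same median. Gstm7 differed by 0.08 (adjusted p = 0.638), and it fell with the libraries at the same median. Of the 50-base stretches in the exons of Gstm3 28.8% also occur in other genes, and of those of Gstm1 18.9%.

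In the alpha class, whose members conjugate lipid peroxidation products, Gsta1, Gsta2 and Gsta4 rose. Gsta1 (chr9:78230656-78242684, plus strand) measured 1.44, -0.19, -0.07, 0.47 and -0.56 log2 CPM in WT PBS and 3.29, 3.69, 3.42, 3.12 and 3.42 in PiZ. It was a low member in WT livers, below 1 CPM in 3 of 5, and higher in every PiZ liver, by 3.17 (SE 0.57, adjusted p = 0.000109). Of the 50-base stretches of its exons 90.5% also occur in another gene, so reads of Gsta1 may belong to a near copy. Gsta2 rose by 1.40 (SE 0.17, adjusted p = 1.73e-06), and 49.8% of its 50-base stretches also occur in other genes. Gsta4, which is best known for conjugating hydroxynonenal, rose by 0.58 (adjusted p = 0.00459), a call lost with the libraries at the same median. Gsta3, the most abundant alpha member, lay at 9.95 to 10.56 in WT PBS and 10.13 to 10.42 in PiZ, a difference of -0.04 that was not called and became a fall of 0.52 log2 with the libraries at the same median. Gstk1, the kappa enzyme of mitochondria and peroxisomes, rose by 0.69 (adjusted p = 0.000105), a call lost in the same way.

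The 3 pi-class genes moved apart. Gstp1 measured 8.10, 8.33, 7.49, 8.25 and 7.95 log2 CPM in WT PBS and 9.61, 9.84, 9.62, 8.48 and 10.14 in PiZ. Every PiZ liver was higher, PiZ 4 only just, and the difference was 1.51 (SE 0.47, adjusted p = 0.01), which with the libraries at the same median was 1.02 and not called (adjusted p = 0.0703). Gstp2 rose by 1.62 (SE 0.43, adjusted p = 0.0033). Gstp1 and Gstp2 share 33.7% and 54.3% of their 50-base stretches with other genes. Gstp3 (chr19:4057477-4059569, minus strand), with no such stretch, measured 10.37, 9.84, 10.18, 10.12 and 10.25 in WT PBS and 9.25, 9.17, 9.39, 9.41 and 9.33 in PiZ. All PiZ livers were lower, but the difference of -0.84 (SE 1.00) was not called (adjusted p = 0.491) in a fit that shares 1 spread with the p50-KO group, where Gstp3 ranged from 3.41 to 10.18. Per kb of exon it was 701 ± 47 CPM in PiZ against 1270 ± 167.

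Of the 3 theta members tested Gstt2 and Gstt3 fell, as did Gstz1 and Gsto1, while Gstt1 differed by -0.14 (adjusted p = 0.555) and fell only with the libraries at the same median. Gstt3 measured 5.91, 5.51, 5.52, 5.68 and 5.45 log2 CPM in WT PBS and 4.04, 3.95, 3.81, 4.74 and 4.79 in PiZ. All PiZ livers were lower, by -1.35 (SE 0.26, adjusted p = 0.000189). Gstz1, the maleylacetoacetate isomerase of tyrosine breakdown, averaged 9.48 in WT PBS (lowest 9.39) and 8.90 in PiZ (lowest 8.85), without overlap, a difference of -0.57 (SE 0.10, adjusted p = 8.13e-05). Gsto1, which reduces dehydroascorbate, measured 6.48, 6.54, 6.75, 6.67 and 6.65 in WT PBS and 5.74, 5.84, 6.28, 6.28 and 6.26 in PiZ. It was lower in every PiZ liver, by -0.54 (SE 0.13, adjusted p = 0.00164).

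**Figure D2:**
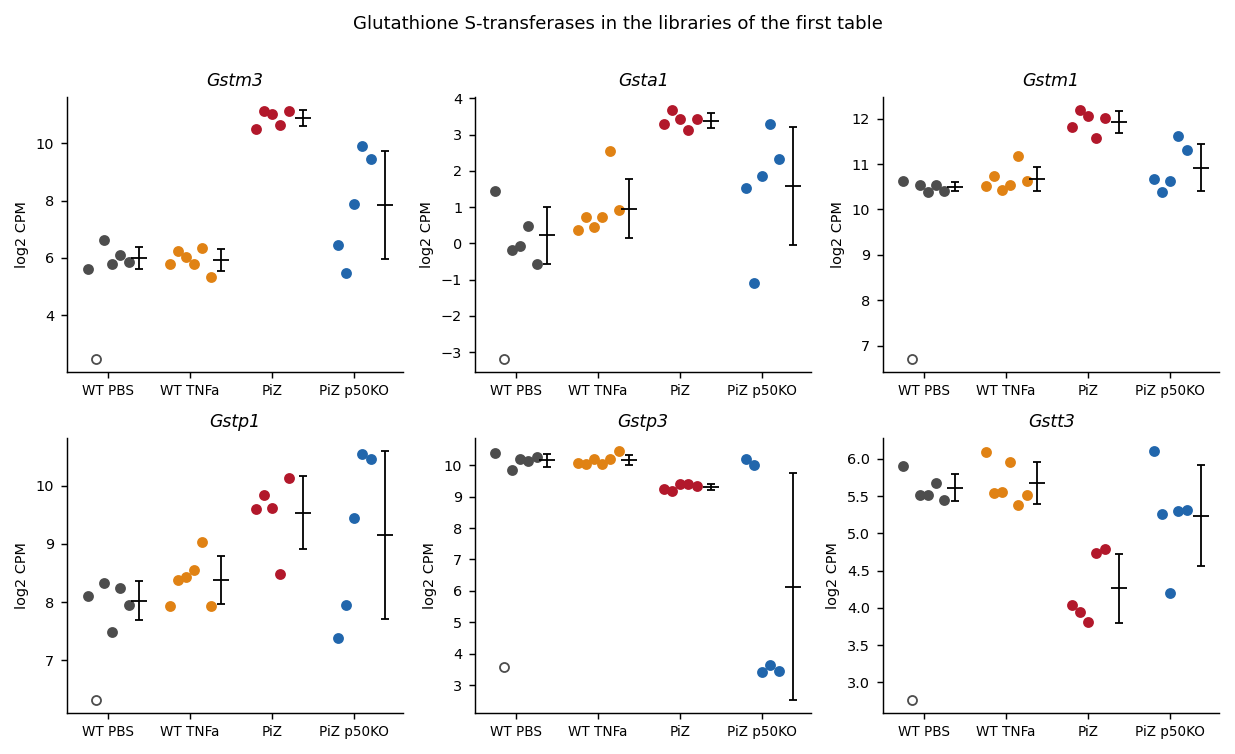
Level of Gstm3, Gsta1, Gstm1, Gstp1, Gstp3 and Gstt3 (log2 CPM, y axis) in each library of the first table (points), with the mean and SD of each group and WT PBS 2 as an open circle. Gstm3 lies at 5.60 to 6.61 log2 CPM in the WT PBS group and at 10.50 to 11.13 in PiZ, and Gstp3 splits the libraries labelled PiZ p50KO into 2 near 10, whose labels are in doubt, and 3 near 3.5.

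At the Ugt1a locus the first exons follow each other on the plus strand of chromosome 1 in the order Ugt1a10, Ugt1a9, Ugt1a8, Ugt1a7c, Ugt1a6b, Ugt1a6a, Ugt1a5, Ugt1a2 and Ugt1a1. The 3 tested genes at the upstream end rose and 3 of the 4 tested at the downstream end fell. Of all genes 45.6% rose and 6.19% fell, or 17.4% and 22.5% with the libraries at the same median. Ugt1a9 (chr1:88070800-88218997), an enzyme for phenolic drugs, measured 4.94, 4.98, 5.29, 5.43 and 5.21 log2 CPM in WT PBS and 8.29, 8.14, 8.16, 8.06 and 8.07 in PiZ. All PiZ livers were far above all WT livers, by 2.97 (SE 0.28, adjusted p = 7.83e-08), and per kb of exon the level went from 16.6 ± 2.38 to 129 ± 8.26 CPM. Ugt1a10 measured -0.07, -0.65, -0.52, 0.09 and 0.11 in WT PBS and 2.70, 2.43, 1.68, 1.96 and 2.27 in PiZ. This rise from about 1 CPM was 5.34-fold (2.42 log2, SE 0.28, adjusted p = 7.28e-07). Ugt1a7c rose by 1.33 (SE 0.31, adjusted p = 0.00122), with 1 overlapping liver in each group. Ugt1a8, untested for its low level, lay at -0.43 to -0.05 in PiZ and at -1.58 or less in the other libraries of the first table save WT PBS 2, at 3.36.

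At the other end of the locus Ugt1a1 (chr1:88211959-88218997), the enzyme that glucuronidates bilirubin, measured 6.72, 6.32, 6.66, 6.43 and 6.51 log2 CPM in WT PBS and 4.80, 4.84, 5.11, 5.03 and 4.63 in PiZ. It was lower in every PiZ liver, by -1.65 (SE 0.12, adjusted p = 7.12e-09), and per kb of exon it went from 41.7 ± 4.73 to 13.3 ± 1.75 CPM. Ugt1a5 measured 5.11, 4.79, 4.51, 5.22 and 4.78 in WT PBS and 2.88, 2.30, 2.21, 2.34 and 2.46 in PiZ. That gap of -2.44 (SE 0.31, adjusted p = 2.31e-06) made it 5.44-fold lower. Ugt1a6b, which acts on planar phenols, fell by 0.99 log2 (SE 0.10, adjusted p = 1.3e-07). Between 50.3% and 82.7% of the exon bases of each Ugt1a gene overlap exons of other genes, counted on either strand and not only within the locus. For Ugt1a1 this was 82.7%, while 58.2% of its 50-base stretches also occur in other genes. How reads of the shared exons were assigned is not given in the sources used here.

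**Figure D3:**
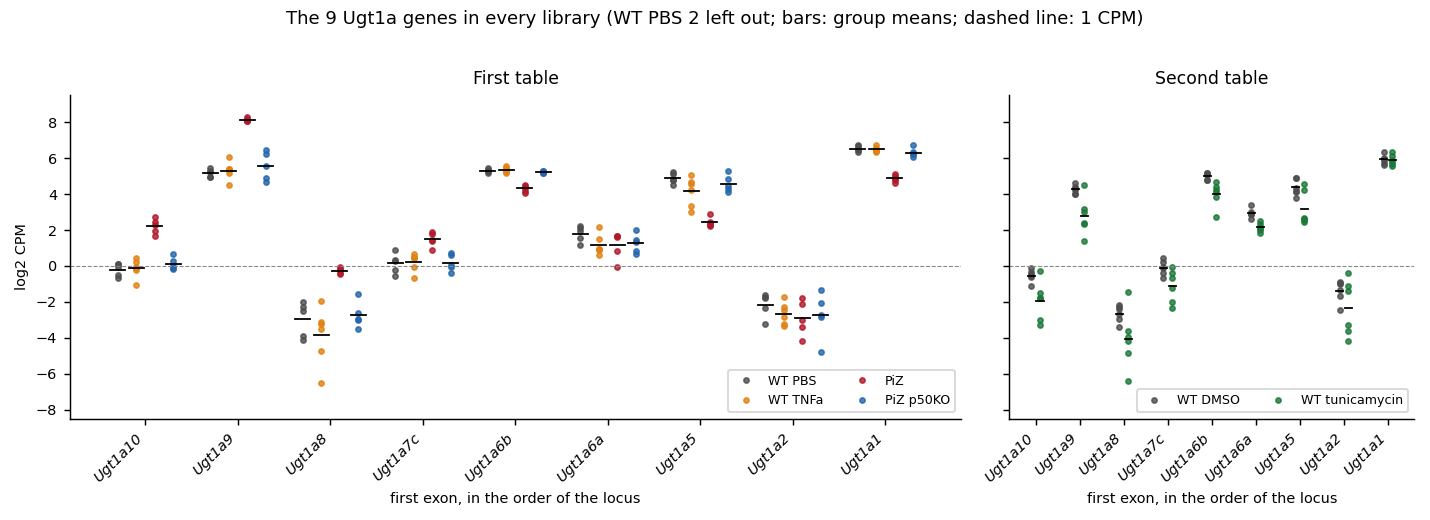
Level of the 9 Ugt1a genes in the order of the locus (x axis) in each library of the first table (left) and the second (right), on a log2 CPM axis, with bars at group means, a dashed line at 1 CPM and WT PBS 2 left out. The PiZ mean is above those of the other groups of its table from Ugt1a10 to Ugt1a7c and below them at Ugt1a6b, Ugt1a5 and Ugt1a1.

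Outside this locus Ugt2b35 measured 7.61, 7.93, 7.83, 7.63 and 7.70 log2 CPM in WT PBS and 8.98, 9.05, 9.15, 8.83 and 8.84 in PiZ. All PiZ livers were higher, by 1.23 (SE 0.22, adjusted p = 9.58e-05). Ugt2b34 rose by 0.65 (adjusted p = 0.00026), a call lost with the libraries at the same median. Ugt2b38 measured 5.37, 5.90, 5.96, 5.78 and 6.07 in WT PBS and 4.80, 4.66, 4.75, 4.13 and 4.65 in PiZ. It was lower throughout, by -1.22 (SE 0.23, adjusted p = 0.00017), and it shares 37.4% of its 50-base stretches with other genes. For Ugt2b5 that share is 41.7%. The abundant Ugt2b5 differed by 0.02 (adjusted p = 0.908), Ugt2b1 by -0.27 (adjusted p = 0.333) and Ugt2b36 by 0.30 (adjusted p = 0.0808), and the first pair fell with the libraries at the same median. The Ugt3a genes, whose enzymes use other sugars than glucuronic acid, both fell, Ugt3a1 by 1.06 log2 (SE 0.13, adjusted p = 1.79e-06) and Ugt3a2 by 0.32 log2 (SE 0.12, adjusted p = 0.0249).

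Among the sulfotransferases Sult5a1 rose, from 3.68, 4.14, 3.79, 4.18 and 4.23 log2 CPM in WT PBS to 5.72, 5.47, 5.61, 5.02 and 4.61 in PiZ. No PiZ liver was as low as a WT liver, and the difference was 1.28 (SE 0.25, adjusted p = 0.000216). Sult2a8 (chr7:14410686-14446769, minus strand), which made up 58.2% of the Sult sum in WT PBS and 41.4% in PiZ, measured 9.09, 9.18, 9.59, 9.07 and 9.14 in WT PBS and 8.26, 8.03, 8.36, 8.73 and 7.93 in PiZ. All PiZ livers were lower, by -0.95 (SE 0.17, adjusted p = 0.000129). Sult1b1, which sulfates thyroid hormone and phenols, measured 4.82 to 5.06 in WT PBS and 4.13 to 4.55 in PiZ and fell by 0.52 log2 (SE 0.18, adjusted p = 0.0169). Without PiZ 2 its adjusted p was 0.0526. Sult1a1 differed by -0.05 (adjusted p = 0.846) and Sult1d1 by 0.07 (adjusted p = 0.789).

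Over all 3 families 16 members were higher and 11 lower in every PiZ liver than in every WT PBS liver, beside 31.4% and 4.36% of all genes. Markers of other liver cell types rose in the same livers: 9 of 10 of macrophages, 10 of 10 of stellate cells, 8 of 10 of endothelial cells and 6 of 8 of cholangiocytes, while 5 of 9 of hepatocytes fell and 1 rose. With the libraries at the same median 9, 9, 1 and 5 of these rose, and 8 of hepatocytes fell. Of all genes 45.6% rose and 6.19% fell, or 17.4% and 22.5% at the same median. The summed macrophage markers were at 231 to 287 CPM in WT PBS and 677 to 1030 in PiZ, and the stellate markers at 166 to 210 and 693 to 1020. The cholangiocyte sum was 34 to 42.4 and 102 to 148, the endothelial sum 259 to 359 and 356 to 516, and the hepatocyte sum 90100 to 121000 and 78300 to 108000. None of these markers was at 0 in a whole group, and the part of the cell mix in the changes of the members was not tested.

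**Figure D4:**
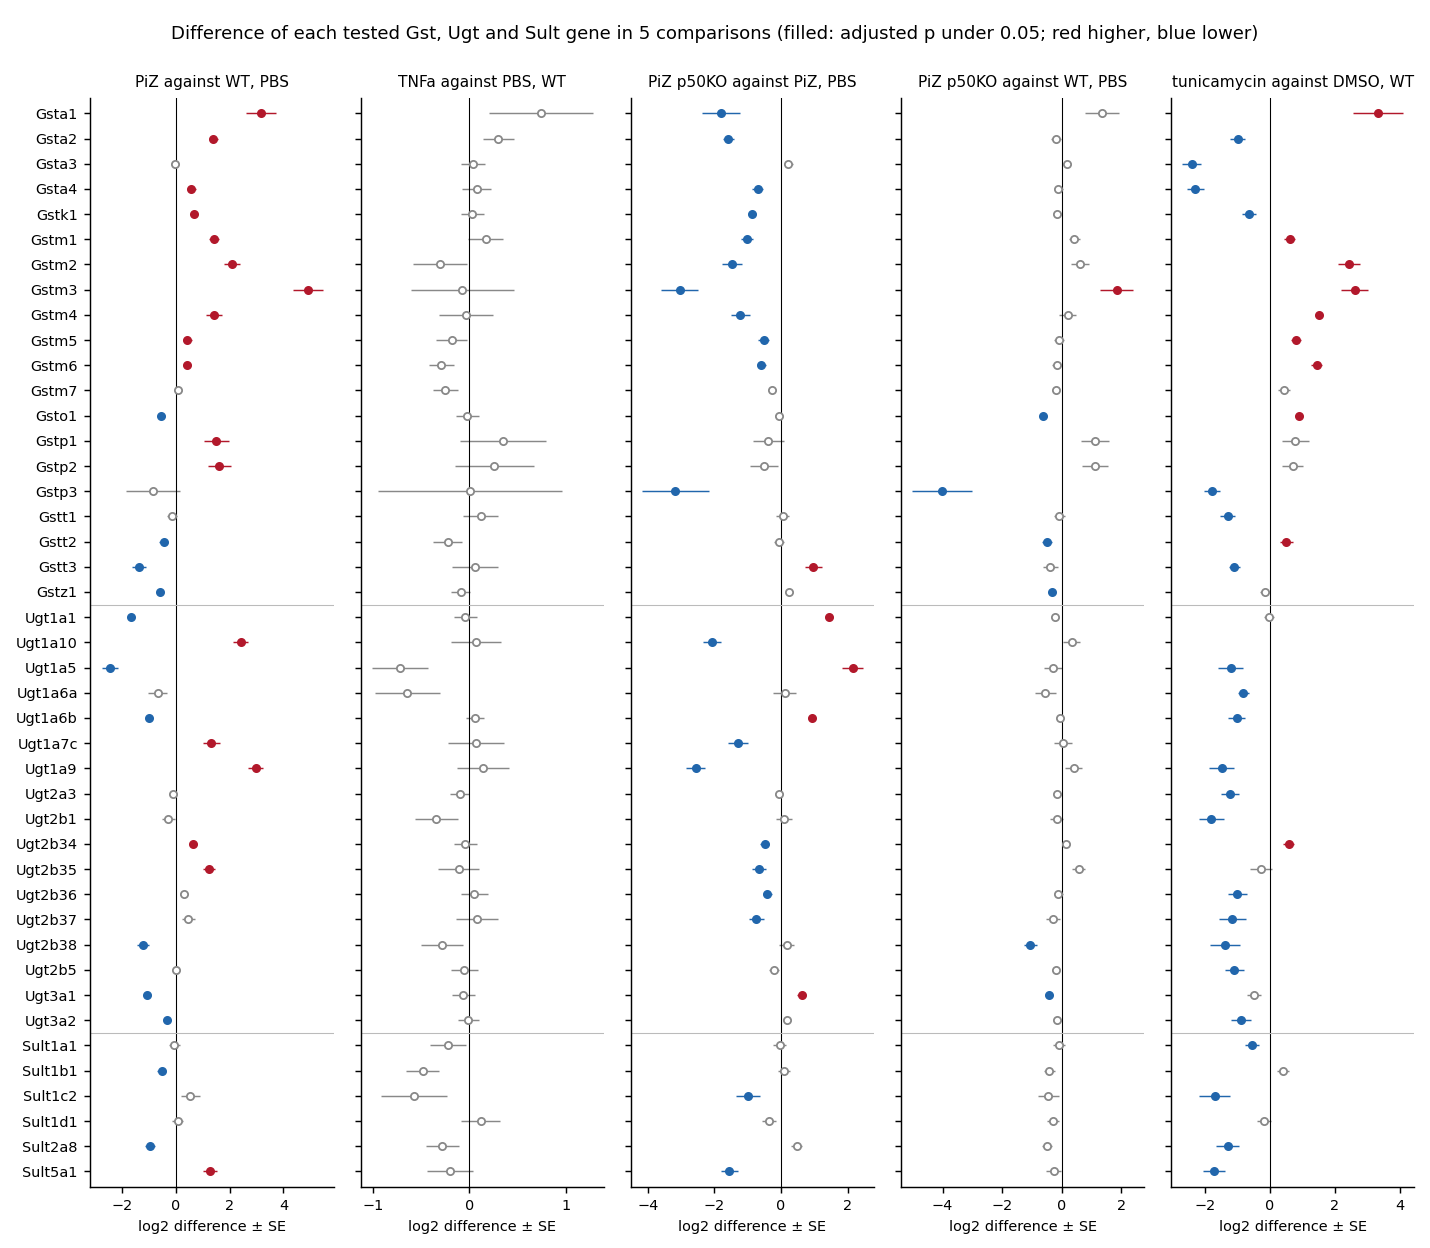
Difference in log2 CPM (points, with SE) for every tested member in the 5 comparisons, 1 panel each, red where it rose, blue where it fell and open where it did not pass an adjusted p of 0.05. The greatest rise in PiZ livers is that of Gstm3 at 4.90 and the TNFa panel holds open points only.

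Genes that feed the conjugation reactions or carry off their products were followed as lists beside the members. Their counts in PiZ stand beside 45.6% of all genes that rose and 6.19% that fell. With the libraries at the same median these shares were 17.4% and 22.5%. In PiZ livers 6 of 10 genes of glutathione synthesis and recycling rose and none fell, with a median of 0.95 beside 0.40 for all genes, and with the libraries at the same median 5 rose and 3 fell. Ggt1, which splits extracellular glutathione, averaged -4.00 log2 CPM in WT PBS, at the level of about 3 reads, and 4.20 in PiZ. How genes of the lists passed the filter was not checked. Ggt1 may have passed only through the PiZ group, so its values are a description. The dipeptidase gene Dpep1 rose by 1.76 (adjusted p = 0.00404). Of the list of UDP-glucuronate supply 4 of 6 genes rose. Slc35b1, placed in that list, rose by 0.99 (adjusted p = 0.000186), and what it carries was not tested. Ugdh, which makes UDP-glucuronate, and its carrier Slc35d1 rose by 0.71 and 0.63, both calls being lost with the libraries at the same median. Of the PAPS supply 3 of 9 rose and 1 fell (2 and 4 at the same median), with the PAPS synthase Papss1 1.20 higher (adjusted p = 8.94e-05).

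Of the efflux transporters 5 of 7 rose (2 rose and 2 fell at the same median), by 3.24 for Abcc4 (adjusted p = 5.69e-07), which exports conjugates to blood, and by 2.12 for Abcb1a (adjusted p = 8.2e-07). Among other detoxifying enzymes 4 of 17 rose and 6 fell. Mgst2, a microsomal glutathione transferase, averaged -5.43 log2 CPM in WT PBS and 1.73 in PiZ. It may also have passed the filter only through the PiZ group, so these values are a description. Nqo1, a quinone reductase, rose by 2.43 (adjusted p = 2.81e-06) and Nnmt, a methyltransferase of nicotinamide, fell by 1.92 (adjusted p = 0.00117). Of 16 transcription factors of xenobiotic genes, Nr1i3, which encodes the receptor CAR, fell by 1.13 (adjusted p = 0.00234). Nfe2l2, which encodes NRF2, rose by 1.02 (adjusted p = 0.000588) and Arnt by 0.72, and both calls were lost with the libraries at the same median, where 9 of the 16 fell and none rose.

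The second comparison asked how livers respond 2 h after TNFa. No member rose or fell with limma, beside 7.63% of all genes that rose and 4.05% that fell, and no member lay outside the range of the other group, beside 3.94% higher and 1.31% lower of all genes. Without adjustment 3 members had p under 0.05, and limma-voom on recovered reads also called 0, with 3 before adjustment, beside 7.77% and 4.52% of all genes. The median difference was 0.02 for Gst, -0.04 for Ugt and -0.25 for Sult, beside -0.02 for all genes. The members farthest along were Sult1b1 at -0.48 (SE 0.17, adjusted p = 0.0711), Ugt1a5 at -0.72 (SE 0.29, adjusted p = 0.136) and Gstm6 at -0.29 (SE 0.13, adjusted p = 0.185).

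Gstm3, Ugt1a9 and Gstp3 overlapped the WT PBS range after TNFa. Gstm3 lay at 5.34, 5.92 and 6.34 log2 CPM (lowest, median and highest of 6 livers), Ugt1a9 at 4.51, 5.35 and 6.04, and Gstp3 at 10.03, 10.13 and 10.46. WT TNFa 4 stood apart: Nfkb1, itself an NF-kB target, measured 4.77 log2 CPM there and 6.57 to 6.95 in the remaining 5 TNFa livers. Without it Sult1b1 fell by 0.58 log2 (SE 0.16, adjusted p = 0.0154), the only member called, beside 9.1% and 6.67% of all genes higher and lower. Of the lists, 2 of 16 transcription factor genes rose and 3 fell. Nr0b2, the repressor SHP, fell by 3.65 (adjusted p = 0.00113), Ppara fell by 1.18 (adjusted p = 0.0225) and Nfe2l2 rose by 1.38 (adjusted p = 0.000121), while no gene of the other 5 lists was called. Neutrophil markers rose in 4 of 6 genes, with sums of 2.43 to 22.1 CPM in WT PBS and 8.49 to 121 after TNFa. Macrophage markers rose in 2 of 10, with sums of 231 to 287 CPM and 315 to 426, and acinar markers of the pancreas in 1 of 9, with sums of 16 to 23.8 and 17.4 to 4180. With all 6 TNFa livers 7.63% of all genes rose and 4.05% fell. The part of these cell types in the values above was not tested.

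The third comparison asked what the loss of p50 changes in PiZ livers. Nfkb1 itself, the targeted gene, measured 4.51, 4.86, 3.31, 3.74 and 3.37 log2 CPM in the libraries labelled PiZ p50KO 1 to 5, 5.58, 5.45, 5.00, 4.62 and 5.12 in PiZ, and 3.92 to 4.34 in WT PBS. The libraries labelled PiZ p50KO 1 and 2 were above the other 3 and above every WT PBS liver, and PiZ p50KO 2 overlapped the PiZ group. Serpina3f split them in the same way, at 3.61 and 3.52 in PiZ p50KO 1 and 2, at 9.05 to 9.44 in PiZ p50KO 3, 4 and 5, at 10.07 to 10.76 in PiZ and at 2.40 to 3.62 in WT PBS. The labels of these 2 libraries are therefore in doubt, and results are given with all 5 and without these 2. PiZ livers are the same libraries as in the first comparison, so a gene high in them is high in both.

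Against PiZ, 6 of 7 mu-class and 3 of 4 alpha-class Gst genes were lower in the group labelled PiZ p50KO, or 4 and 1 with the libraries at the same median, and the Ugt1a locus again moved both ways. With all 5 libraries 5 members rose and 20 fell, beside 3.36% and 21.6% of all genes. By family 1 Gst rose and 11 fell, 4 Ugt rose and 7 fell, and 2 Sult fell. Median differences were -0.55 for Gst, -0.05 for Ugt and -0.20 for Sult, beside -0.22 for all genes. With the libraries at the same median 9 members rose and 11 fell, beside 9.84% and 9.11% of all genes. Without PiZ p50KO 1 and 2, 4 members rose and 11 fell, beside 1.57% and 9.57%. The summed Ugt level separated the libraries too, at 3086 and 2852 CPM in PiZ p50KO 1 and 2 and at 4675, 4911 and 4873 in PiZ p50KO 3, 4 and 5. The first pair lay below every WT PBS liver (3731 to 4460) and the rest above them.

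Gstm3 measured 6.46, 5.49, 7.90, 9.91 and 9.45 log2 CPM in PiZ p50KO 1 to 5. All were below the lowest PiZ liver (10.50), by -3.05 on average (SE 0.55, adjusted p = 0.00053) and by -1.80 without PiZ p50KO 1 and 2 (adjusted p = 0.00171). Gstm2 fell by 1.47 log2 and Gstm1 by 1.02 log2, and by 1.01 and 0.76 without these 2. Gsta1 measured 1.53, -1.09, 1.86, 3.29 and 2.34, with PiZ p50KO 4 inside the PiZ range. Its difference of -1.80 (SE 0.57, adjusted p = 0.0253) was not called with the libraries at the same median (adjusted p = 0.0624) or without PiZ p50KO 1 and 2 (-0.89, adjusted p = 0.222). Gsta2 fell by 1.58 log2 in both cases (adjusted p = 2.84e-06 with all 5).

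Gstp3 gave the widest gap of all members. It measured 10.18 and 9.99 log2 CPM in PiZ p50KO 1 and 2 and 3.41, 3.64 and 3.45 in PiZ p50KO 3, 4 and 5, against 9.17 to 9.41 in PiZ. The first 2 were at the WT PBS level and the other 3 far below every other library of the first table except WT PBS 2, at 3.59. Against PiZ the difference was -3.18 (SE 1.00, adjusted p = 0.0245) with all 5 and -5.81 (SE 0.12, adjusted p = 3.03e-17) without PiZ p50KO 1 and 2. Gstp3 itself splits the libraries as Nfkb1 and Serpina3f do. The value without these 2 is therefore a description and not an independent test. Leaving out PiZ p50KO 3, 4 or 5 instead gave adjusted p of 0.0665, 0.0631 and 0.0671. Its neighbours did not follow: Gstp1 measured 7.38, 7.95, 9.45, 10.55 and 10.47, with PiZ p50KO 4 and 5 above the highest PiZ liver, a difference of -0.38 (adjusted p = 0.596). Gstt3, at 6.11, 5.26, 4.20, 5.30 and 5.31, rose against PiZ by 0.97 (SE 0.26, adjusted p = 0.00862), a call lost without PiZ p50KO 1 and 2 (0.67, adjusted p = 0.101).

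At the Ugt1a locus the libraries labelled PiZ p50KO lay on the WT side of the PiZ livers. Ugt1a9 measured 4.66, 4.92, 5.55, 6.26 and 6.48 log2 CPM, all below the PiZ livers, a difference of -2.57 (SE 0.28, adjusted p = 2.85e-06) and of -2.05 (adjusted p = 1.56e-05) without PiZ p50KO 1 and 2. Ugt1a10 measured -0.14, -0.01, -0.18, 0.69 and 0.28 and was below every PiZ liver, a difference of -2.08 (SE 0.28, adjusted p = 3.02e-05), or -1.94 (adjusted p = 0.000636) without these 2. Ugt1a5 measured 5.26, 4.45, 4.26, 4.86 and 4.12, all above the PiZ livers, by 2.15 (SE 0.31, adjusted p = 6.21e-05) and by 1.98 (adjusted p = 0.00116). Ugt1a1 measured 6.21, 6.32, 6.74, 6.24 and 6.04, again above all PiZ livers, by 1.43 (SE 0.12, adjusted p = 1.3e-07) and by 1.46 (adjusted p = 2.39e-06). Ugt1a6b measured 5.19 to 5.28 and rose by 0.92 (SE 0.10, adjusted p = 2.21e-06), and by 0.93 without these 2. The calls of these 5 genes held with and without the doubtful libraries. Ugt1a7c fell by 1.29 with all 5 and missed the threshold without the 2 (-1.06, adjusted p = 0.0562).

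Among the remaining Ugt members Ugt2b34, Ugt2b35, Ugt2b36 and Ugt2b37 fell with all 5 libraries and none of the 4 with the libraries at the same median. Ugt2b37, the first of them by size, measured 3.72, 3.80, 3.84, 4.37 and 4.50 against 4.20 to 5.17 in PiZ. The ranges overlapped, and the difference of -0.74 (SE 0.23, adjusted p = 0.0227) was not called without PiZ p50KO 1 and 2 (adjusted p = 0.19). Ugt3a1 rose by 0.62 (SE 0.13, adjusted p = 0.00184) and by 0.50 (adjusted p = 0.0201) without them. Sult5a1 measured 4.07, 3.96, 3.53, 3.97 and 3.13 and was below every PiZ liver, by -1.55 (SE 0.25, adjusted p = 0.000159) with all 5 and by -1.74 (adjusted p = 0.000574) without the 2. Sult1c2 fell by 1.00 log2 (adjusted p = 0.0446), and not with the libraries at the same median or without the 2.

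In all, 4 members were higher and 11 lower in every library labelled PiZ p50KO than in every PiZ liver, beside 1.64% and 11.9% of all genes. Macrophage markers fell in 10 of 10 genes, stellate markers in 9 of 10 and cholangiocyte markers in 5 of 8, with macrophage sums of 346 to 609 CPM against 677 to 1030 in PiZ and stellate sums of 238 to 454 against 693 to 1020. Over all genes 3.36% rose and 21.6% fell in this comparison (9.84% and 9.11% at the same median). The part of these cell types in the changes of the members was not tested. Of the glutathione genes 6 of 10 fell and none rose (4 and 1 at the same median), among them Gss, glutathione synthetase, by 0.87 log2 (adjusted p = 0.000257). Of the transporters 3 of 7 fell, Abcc4 by 1.87 log2 and Abcb1a by 1.50 log2. Nqo1 fell by 1.56 log2, and Nr1i3 rose by 0.92 (adjusted p = 0.0224), a call lost without PiZ p50KO 1 and 2. Mgst2 was 4.79 log2 lower, given as a description since it may have passed the filter only through the PiZ group.

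Set against WT PBS, the group labelled PiZ p50KO differed in few members, and the count turned on the 2 doubtful libraries. With all 5 libraries 1 member rose and 6 fell, beside 10.5% and 1.14% of all genes. Without PiZ p50KO 1 and 2, 10 rose and 6 fell, beside 15.4% and 2.86%. With the libraries at the same median none rose and 9 fell, beside 3.2% and 4.33%. Family medians with all 5 were -0.10 for Gst, -0.15 for Ugt and -0.36 for Sult, beside 0.19 for all genes. No member was higher and 3 were lower without overlap of the groups, beside 6.08% and 0.557%. This comparison is not named by the study and shares its WT PBS livers with the first.

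The riser was Gstm3, by 1.85 (SE 0.55, adjusted p = 0.0345), not called with the libraries at the same median (adjusted p = 0.0651) and 3.09 higher (SE 0.34, adjusted p = 2.91e-06) without PiZ p50KO 1 and 2. The members that fell were Gstp3, Gsto1, Gstt2, Gstz1, Ugt2b38 and Ugt3a1. Gstp3 differed by -4.02 (SE 1.00, adjusted p = 0.0157), by -6.65 (SE 0.12, adjusted p = 2.35e-18) without PiZ p50KO 1 and 2, and by a value that missed the threshold without PiZ p50KO 4 (adjusted p = 0.0516). The value without PiZ p50KO 1 and 2 is again a description, since Gstp3 itself splits the libraries. Gsto1 measured 6.14, 6.33, 5.57, 5.98 and 6.05 log2 CPM, below every WT PBS liver, by -0.61 (SE 0.13, adjusted p = 0.00796), and Gstz1 differed by -0.32 (adjusted p = 0.0401). Gstt2, at 5.89, 5.57, 5.08, 5.84 and 5.61 against 5.68 to 6.56, overlapped and differed by -0.50 (SE 0.16, adjusted p = 0.0435). Ugt2b38 measured 4.74, 4.84, 4.57, 4.85 and 4.84, below all WT PBS livers, by -1.05 (SE 0.23, adjusted p = 0.00872). Ugt3a1, at 6.51, 6.03, 5.73, 6.06 and 6.11 against 6.36 to 6.66, overlapped through PiZ p50KO 1 and differed by -0.44 (SE 0.13, adjusted p = 0.0343).

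Without the 2 doubtful libraries the members that rose against WT PBS were Gsta1, Gstm1, Gstm2, Gstm3, Gstm4, Gstp1, Gstp2, Ugt1a9, Ugt2b34 and Ugt2b35. Not all of these calls held with the remaining libraries at the same median, where 7 members rose. Gstp1 was then 2.13 higher (SE 0.33, adjusted p = 0.000133), Gstp2 2.05 higher (SE 0.28, adjusted p = 3.58e-05), Gsta1 2.28 higher (adjusted p = 0.00156) and Ugt1a9 0.92 higher (SE 0.24, adjusted p = 0.0107). Stellate markers rose in 6 of 10 genes and macrophage markers in 4 of 10, with 1 that fell, and acinar markers of the pancreas in 6 of 9, with sums of 19.4 to 1320 CPM against 16 to 23.8 in WT PBS. Over all genes 10.5% rose and 1.14% fell with all 5 libraries, and 15.4% and 2.86% without the 2. The part of these cell types was not tested. Of the lists, Cth, a gene of cysteine synthesis, fell by 1.20 log2 (adjusted p = 0.0101), Inmt, a methyltransferase, fell by 0.61 log2 (adjusted p = 0.0133), and Abcc4 rose by 1.36 (adjusted p = 0.0214), a call lost with the libraries at the same median.

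The fourth comparison, in the second table, asked how livers respond 24 h after tunicamycin. Here 6 of 7 mu-class Gst genes (4 with the libraries at the same median) were higher, while the abundant Gsta3, Gsta4 and Gstp3 and most Ugt and Sult members were lower than in DMSO livers. Of 41 members tested 10 rose and 22 fell, beside 45.3% and 13.5% of all 13388 genes. By family 9 Gst rose and 7 fell, 1 Ugt rose and 11 fell, and 4 Sult fell. Gsta1 and Sult1c2 passed the filter only through the group in which they were high, and without them 9 of 39 rose (8 Gst) and 21 fell (3 Sult). Median differences were 0.56 for Gst, -1.02 for Ugt and -0.92 for Sult, beside 0.38 for all genes. With the libraries at the same median, where the all-gene median was -0.07, 6 rose and 24 fell, beside 24.1% and 29.2%. These counts are over all 41 members, with Gsta1 and Sult1c2 among them.

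Gstm3 lay at 5.63, 5.84 and 6.47 log2 CPM (lowest, median and highest of 6) after DMSO and at 6.71, 8.65 and 9.90 after tunicamycin. The groups did not overlap, and the difference was 2.61 (SE 0.42, adjusted p = 0.0002), 6.12-fold. Gstm2 lay at 5.20, 5.50 and 5.84 after DMSO and at 6.15, 8.22 and 8.66 after tunicamycin, also without overlap, a rise of 2.44 (SE 0.35, adjusted p = 9.1e-05). Gsta1 lay at -0.38, 1.23 and 1.94 after DMSO and at 0.70, 4.82 and 6.25 after tunicamycin. The difference was 3.33 (SE 0.78), given as a description since Gsta1 passed the filter only through the tunicamycin group, and the groups overlapped through 1 liver, tunicamycin b, 1 of 3 columns with no replicate number. That liver was also the lowest of its group for Gstm2 and Gstm3 and the highest for Gsta3, Gsta4 and Gstp3.

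Gstm4 rose by 1.50 (SE 0.12, adjusted p = 1.32e-06) and Gstm6 by 1.44 (SE 0.17, adjusted p = 2.1e-05), while the rises of Gstm1 (0.62, adjusted p = 0.00675) and Gstm5 (0.81) were lost with the libraries at the same median and Gstm7 differed by 0.43 (adjusted p = 0.051). Gsto1, lower in PiZ livers, rose here by 0.91 (SE 0.12, adjusted p = 6.94e-05). Gstm1 made up 24.9% of the Gst sum after DMSO and 38.7% after tunicamycin, and the sum itself was 5360 CPM ± 443 (SD, n = 6) and 5203 ± 276, which overlapped.

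The falls took in members of high level. Gsta3 lay at 10.07, 10.17 and 10.37 log2 CPM after DMSO and at 6.49, 7.80 and 8.62 after tunicamycin. The gap left no overlap, and Gsta3 was 5.29-fold lower (-2.40 log2, SE 0.29, adjusted p = 2.94e-05). Gsta4 lay at 6.07, 6.27 and 6.46 and at 2.79, 4.06 and 4.82, also apart, a difference of -2.29 (SE 0.26, adjusted p = 1.62e-05). Gstp3 lay at 9.90, 10.04 and 10.27 and at 7.35, 8.26 and 9.17, apart again, a difference of -1.78 (SE 0.25, adjusted p = 8.85e-05). Gstt1 fell by 1.30 log2 (SE 0.22, adjusted p = 0.000308) and Gstt3 by 1.09 log2.

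**Figure D5:**
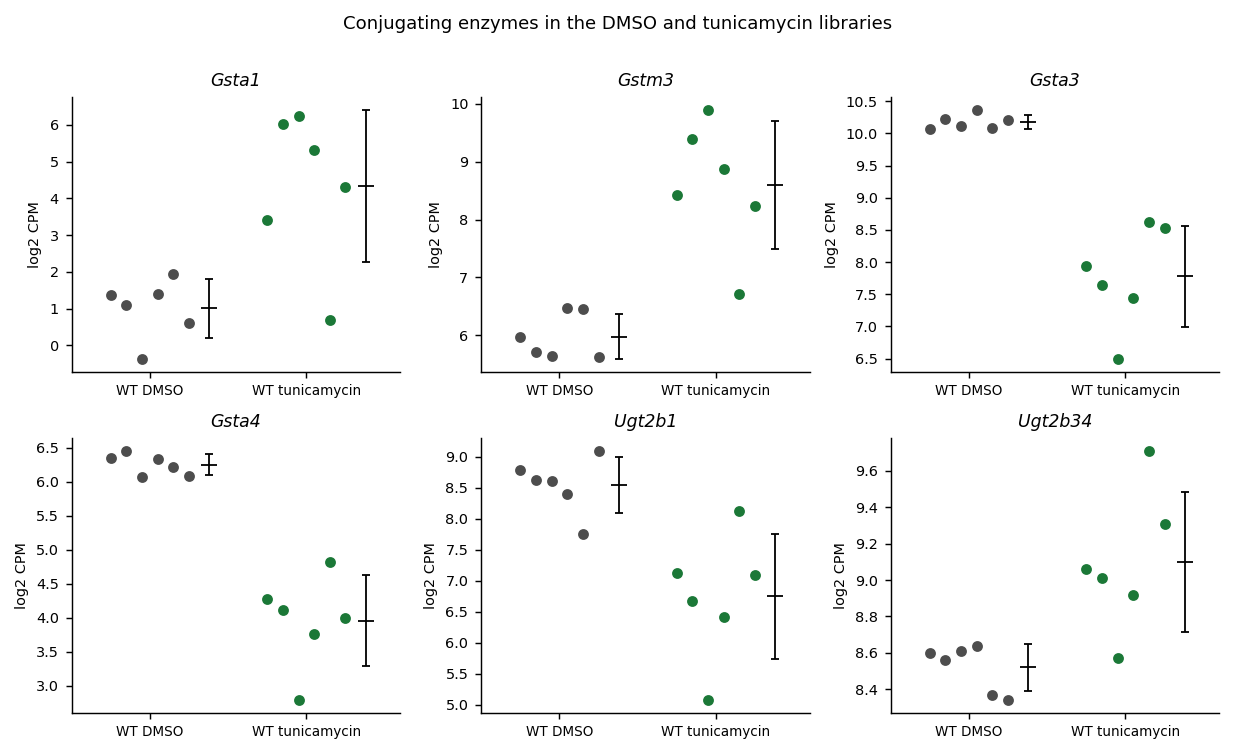
Level of Gsta1, Gstm3, Gsta3, Gsta4, Ugt2b1 and Ugt2b34 (log2 CPM, y axis) in the 6 DMSO and 6 tunicamycin livers (points), with the mean and SD of each group. Gsta3 and Gsta4 drop in all 6 tunicamycin livers, and Gsta1 spreads from 0.70 to 6.25 log2 CPM.

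The summed Ugt level was 2377 CPM ± 228 (SD, n = 6) after DMSO and 1677 ± 690 after tunicamycin, with wide scatter from 816.7 to 2821. Ugt2b1 (chr5:86916638-86926530, minus strand) lay at 7.75, 8.62 and 9.10 log2 CPM and at 5.07, 6.88 and 8.12. The ranges overlapped, and the difference was -1.80 (SE 0.39, adjusted p = 0.00173). Ugt1a9 lay at 4.00, 4.29 and 4.64 and at 1.37, 2.71 and 4.49, overlapping through tunicamycin b, a difference of -1.48 (SE 0.39, adjusted p = 0.00522). Ugt2b38 lay at 3.88, 4.45 and 4.94 and at 0.94, 3.08 and 4.62, with overlap, a difference of -1.39 (SE 0.46, adjusted p = 0.0195). Ugt2a3 fell by 1.23 log2 and Ugt2b5 by 1.09 log2, while Ugt1a1 lay at 5.61 to 6.37 and at 5.56 to 6.37, a difference of -0.03 (adjusted p = 0.886). Ugt2b34 alone among the Ugt members rose, from a median of 8.58 to one of 9.04, by 0.58 (SE 0.17, adjusted p = 0.0109), and that call was lost with the libraries at the same median (adjusted p = 0.643).

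The summed Sult level was 700 CPM ± 193 (SD, n = 6) after DMSO and 406.3 ± 136 after tunicamycin. Sult5a1 lay at 3.12, 3.94 and 4.60 log2 CPM and at 1.35, 2.06 and 3.23, overlapping slightly, a difference of -1.71 (SE 0.33, adjusted p = 0.000676). Sult2a8 lay at 7.60, 8.45 and 9.18 and at 5.83, 7.24 and 7.92, with overlap, a difference of -1.30 (SE 0.36, adjusted p = 0.00731). Sult1a1 lay at 7.55, 7.99 and 8.59 and at 6.93, 7.31 and 7.98, a difference of -0.54 (SE 0.22, adjusted p = 0.0462). Sult1c2, which passed the filter only through the DMSO group, differed by -1.70, and Sult1d1 differed by -0.18 (adjusted p = 0.497).

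Without overlap of the groups 6 members were higher and 8 lower after tunicamycin, beside 28.5% and 4.76% of all genes. Hepatocyte markers fell in 4 of 9 genes, with sums of 90000 to 133000 CPM after DMSO and 29600 to 73300 after tunicamycin. Macrophage markers fell in 5 of 10, with sums of 250 to 889 and 236 to 333, and acinar markers of the pancreas rose in 6 of 7, with sums of 10.2 to 27.7 and 10.6 to 1270. Over all genes 45.3% rose and 13.5% fell. The part of these cell types in the members' changes was not tested.

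Of the genes that supply or follow conjugation, 5 of 8 of the glutathione list rose and 2 fell after tunicamycin (3 and 2 at the same median). Of all genes 45.3% rose and 13.5% fell (24.1% and 29.2% at the same median). Chac1, which degrades glutathione inside cells, rose by 3.60 (adjusted p = 0.0026), Cth by 1.24 (adjusted p = 0.00107), and Gclc, the catalytic subunit for the first step of glutathione synthesis, fell by 1.62 log2 (adjusted p = 0.00123). Slc35b1 rose by 2.63 (adjusted p = 6.11e-07), Papss1 by 2.04 (adjusted p = 4.72e-05) and Abcc4 by 2.83 (adjusted p = 8.23e-06). Of the other detoxifying enzymes 3 of 16 rose and 10 fell, by 4.56 log2 for Inmt (adjusted p = 3.23e-05). Of 16 transcription factor genes 5 fell and none rose, Nr1i3 by 1.59 log2 (adjusted p = 0.00419).

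PiZ against WT PBS and tunicamycin against DMSO share no library, and 41 members were tested in both. Of these 8 rose in both, which is 50% of the 16 that rose in PiZ and 80% of the 10 that rose after tunicamycin: Gsta1, Gstm1, Gstm2, Gstm3, Gstm4, Gstm5, Gstm6 and Ugt2b34. Gsta1 passed the second table's filter only through the tunicamycin group, so its part in this count and these shares is a description. Of all 12547 genes tested in both, 2917 rose in both, 52.6% of those that rose in PiZ and 51.2% of those that rose after tunicamycin (22.7% and 14.1% with the libraries at the same median). Of the 8 members Gstm2, Gstm3 and Gstm4 were called in both with the libraries at the same median, as was Gsta1, with the same limit. A further 6 fell in both, 50% of the 12 in PiZ and 27.3% of the 22 after tunicamycin: Gstt3, Sult2a8, Ugt1a5, Ugt1a6b, Ugt2b38 and Ugt3a2. Of all genes 404 fell in both, 50.5% of those that fell in PiZ and 23.3% of those that fell after tunicamycin (46.2% and 36.3% at the same median). Opposite calls came from Gsta2, Gsta4, Gstk1, Sult5a1 and Ugt1a9, which rose in PiZ and fell after tunicamycin, and from Gsto1 and Gstt2, which did the reverse, with the PiZ calls of Gsta4 and Gstk1 and the tunicamycin call of Gstt2 lost with the libraries at the same median. Ugt1a9 stood at 2.97 in PiZ and -1.48 after tunicamycin, and Ugt1a1 at -1.65 and -0.03. These differences between the 2 comparisons were not tested, since the tables were normalized apart.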

How the data were processed

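Liver RNA-seq libraries were deposited as 2 tables of log2 CPM per gene, made by the authors with bcl2fastq, DRAGEN, STAR, featureCounts of Subread and edgeR on GRCm38, per the submitters' processing notes, which give no role or order. CPM values lost no reads: the low values of every library were whole multiples of 1 read (100% within 0.1 of a read), so depth and counts could be recovered. The floor quoted is 3 reads, 0.0556 to 0.0874 CPM per library and 0.294 in WT PBS 2. All columns were mapped to samples by name (sample columns not used: 0). Each table has 55774 rows for 55487 gene IDs, repeats being counted once.

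Genes above 0 log2 CPM (1 CPM) in at least 5 libraries (first table, 13285 genes) or 6 (second table, 13388 genes) were tested with limma 3.58.1 in R 4.3.3 (lmFit and eBayes with trend, two-sided, Benjamini-Hochberg adjustment over all genes tested). All groups of a table shared 1 estimate of the spread, and WT PBS 2 was left out. On data simulated for PiZ against WT, 60% of log2 changes of 1 and 97% of log2 changes of 2 were recovered and 7.1% of calls were unchanged genes, and for tunicamycin against DMSO the values were 60%, 91% and 9.58%. The simulation planted 100 changes of each size, as many up as down, and no shift of a whole group. In the real data 45.6% of all genes rose in PiZ, so these rates may not carry over to it. Alternatives were a shift of each library to the same median over tested genes, limma-voom on recovered reads with size factors, another filter, a pseudocount of 1 CPM, a fit of only the groups compared, the replicate number as a block, libraries put in or left out. Limma-voom called 2690 genes higher and 2495 lower in PiZ, and 3520 and 3692 after tunicamycin.

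Named in full were up to 3 members per family, direction and comparison with the greatest change whose higher group averaged 2 log2 CPM or more, the 3 members per family with the most reads per kb in WT PBS, and up to 3 called genes of each pathway list, some of which are not reported here. The members and lists were chosen with earlier results of these data known. Gene positions and exons are from GENCODE M21 and promoters from RefSeq (GRCm38.p6). Python 3.11.15 and pandas 2.3.3 were used for the sums and the promoters.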

Additional observations from a re-analysis of the deposited data

Results flagged for a closer look

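Among 174 group values of the named members, 8 had a highest or lowest liver whose gap to the next was wide for the range of its group, and chance gives this in about 1 of 20 groups. High livers were WT TNFa 5 for Gsta1, at 2.55 log2 CPM with the next at 0.92, and for Gsta4, at 7.19 with the next at 6.46, and WT PBS 4 for Sult2a8, at 9.59 with the next at 9.18. Low livers were PiZ 4 for Gstm2, at 7.39 with the next at 7.82, and for Ugt2b38, at 4.13 with the next at 4.65, PiZ 3 for Gstt2, at 5.58 with the next at 5.66, WT TNFa 1 for Sult1a1, at 7.35 with the next at 8.01, and tunicamycin b for Gstm2, at 6.15 with the next at 7.82.

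WT PBS 2, which the tests as reported left out, had 32360 genes above 1 CPM. The next highest count, that of tunicamycin a, was 13621. In WT PBS 2, 10 of the untested members exceeded 0 log2 CPM (1 CPM), a count that was not set apart from this excess over all genes. The highest was Sult4a1, a brain sulfotransferase, at 6.54 log2 CPM (949 reads), followed by Sult2b1, which sulfates cholesterol, at 4.91, Gsto2 at 4.61, Ugt1a8 at 3.36 and Gstt4 at 3.09.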

How the results depend on the processing

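For only some of the settings below is the share over all genes given above. The counts of members here therefore describe the processing and are not read as results about the members. In PiZ against WT the number that fell was 19 with the libraries at the same median, and with WT PBS 2 it was 1 on either scale, where 9 rose at the same median. For TNFa 1 fell without WT TNFa 4 on either scale. In PiZ p50KO against PiZ, 9 rose and 11 fell at the same median, 9 and 12 with limma-voom, 1 and 5 with WT PBS 2, 1 and 2 with both that library and the same median, 11 fell without PiZ p50KO 1 and 2, and 10 rose and 8 fell without these at the same median. In PiZ p50KO against WT, 0 rose at the same median, with no filter, with only the groups compared, with limma-voom and with WT PBS 2 on either scale, while 10 rose without PiZ p50KO 1 and 2 and 7 at the same median. There 0 fell with WT PBS 2 on either scale, 1 with no filter and 2 with only the groups compared. After tunicamycin 6 rose at the same median and 12 fell with no filter. Leaving out 1 library gave 17 to 19 that rose and 10 to 12 that fell in PiZ, 0 to 0 and 0 to 1 for TNFa, 5 to 6 and 14 to 20 in PiZ p50KO against PiZ, 0 to 6 and 2 to 6 in PiZ p50KO against WT, and 9 to 11 and 20 to 23 after tunicamycin. In PiZ p50KO against WT, 4 rose without PiZ p50KO 1, 6 rose and 3 fell without PiZ p50KO 2, and 0 rose without PiZ p50KO 4 or 5 or WT PBS 1, 4, 5 or 6. Ugt3a1 turned from lower to 0.23 higher with WT PBS 2 (0.27 at the same median), Inmt to 0.22 (0.26), both in PiZ p50KO against WT, and Slc35b3 in PiZ to -0.01 with WT PBS 2 at the same median. Most same-numbered libraries did not deviate together (correlations -0.23 to 0.20). PiZ 4 and WT PBS 4 did, at 0.56, for a reason that was not tested. The replicate numbers were not used as pairs in the fits reported above. The replicate block gave 18 and 12 in PiZ, 6 and 19 in PiZ p50KO against PiZ, 0 that rose in PiZ p50KO against WT and 6 that rose after tunicamycin, over the 3 pairs with a number. The same-median fits with WT PBS 2, or without PiZ p50KO 1 and 2 or WT TNFa 4, were chosen after seeing the data. Members near 1 CPM (Gsta1, Ugt1a7c and Ugt1a10 in WT) rest on the fewest reads. The cause of these changes was not tested.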
